A study of Ambystoma mexicanum with 12 samples.

Results

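Wounds of axolotl skin at 21 days post injury (dpi) were compared with wounds at 2 dpi, 3 arrays against 3 of the 12 arrays in the series, over every probe set of the array except its 45 control sets. The remaining 20035 probe sets are called probes here, and 10951 of them carry a single gene symbol, for 8639 genes. The tissue was full-thickness skin of adult white axolotls (Ambystoma mexicanum), and the study's methods describe 2 mm punches from the body of 3 separate males of 2 years. The sample titles of the 2 dpi group and the 21 dpi group name only the time since injury, with no allele, transgene or drug. The other 6 arrays were 3 of uninjured skin and 3 of wounds titled 14 dpi, which a second label of the same arrays calls 7 days. A further label describes pooled small larvae with an ivermectin injection into the spinal cord and does not describe a skin wound, so whether an array held 1 animal or a pool was not settled, and p-values measure the spread between these arrays. Because a punch is a mixture, fewer cells of a type and less RNA per cell cannot be told apart in any value below.

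A full-thickness skin wound is first covered by keratinocytes that migrate over a provisional matrix while neutrophils and macrophages enter it. Later, fibroblasts fill the bed with collagens, proteoglycans and glycoproteins, vessels grow in, and the epidermis settles on a new basement membrane. Axolotls are known for restoring skin after such wounds without a lasting scar.

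Levels are log2 intensities from robust multi-array average (RMA), so a difference of 1 on this scale is 2-fold. A probe or gene was called higher or lower when its adjusted p in limma was under 0.05 (Benjamini-Hochberg over all 20035 probes), and the error given with a difference is its standard error (SE) from that fit. The lower quartile of all values was 4.08 and the median 5.58, which serve as guides to dim and middling signals. Arrays of 2 dpi correlated with each other at 0.981 to 0.986 and arrays of 21 dpi at 0.980 to 0.994, while pairs from the 2 groups correlated at 0.924 to 0.963 over all probes. The labelled tissue was checked against its markers. At both times 7 of 7 measured suprabasal and wound epidermis markers, 2 of 2 basal keratinocyte markers and 5 of 6 dermal fibroblast markers were above the array median. So were 4 of 4 skeletal muscle markers, while 0 of 3 pigment cell markers and 0 of 2 nerve markers were. Of 5 endothelial markers, 0 were above it at 2 dpi and 2 at 21 dpi. An array outside the comparison, 14 dpi replicate 2, lay closer to 21 dpi replicate 1 (r = 0.992) than to its own group, and without it 4781 probes were called.

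Of 20035 probes, 4369 (21.8%) changed, 1882 of them higher at 21 dpi (9.39%) and 2487 lower (12.4%). Changes of at least 2-fold were called for 1622 probes (8.1%), 790 higher (3.94%) and 832 lower (4.15%). Without 2 dpi replicate 2, 21 dpi replicate 1 or 21 dpi replicate 3, the count of changed probes was 2912, 2773 or 2738. Among named genes, 2188 of 8639 (25.3%) changed, 940 higher (10.9%) and 1248 lower (14.4%), and those last 2 shares are the background for every gene list below. In 2179 of the 2188 the 3 arrays of one time point did not overlap the 3 of the other, against 44.9% of all genes whose arrays were separated in either direction. Changes of at least 2-fold were called for 772 genes (8.94%), 404 higher (4.68%) and 368 lower (4.26%). The median difference over all genes was -0.03.

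**Figure D1:**
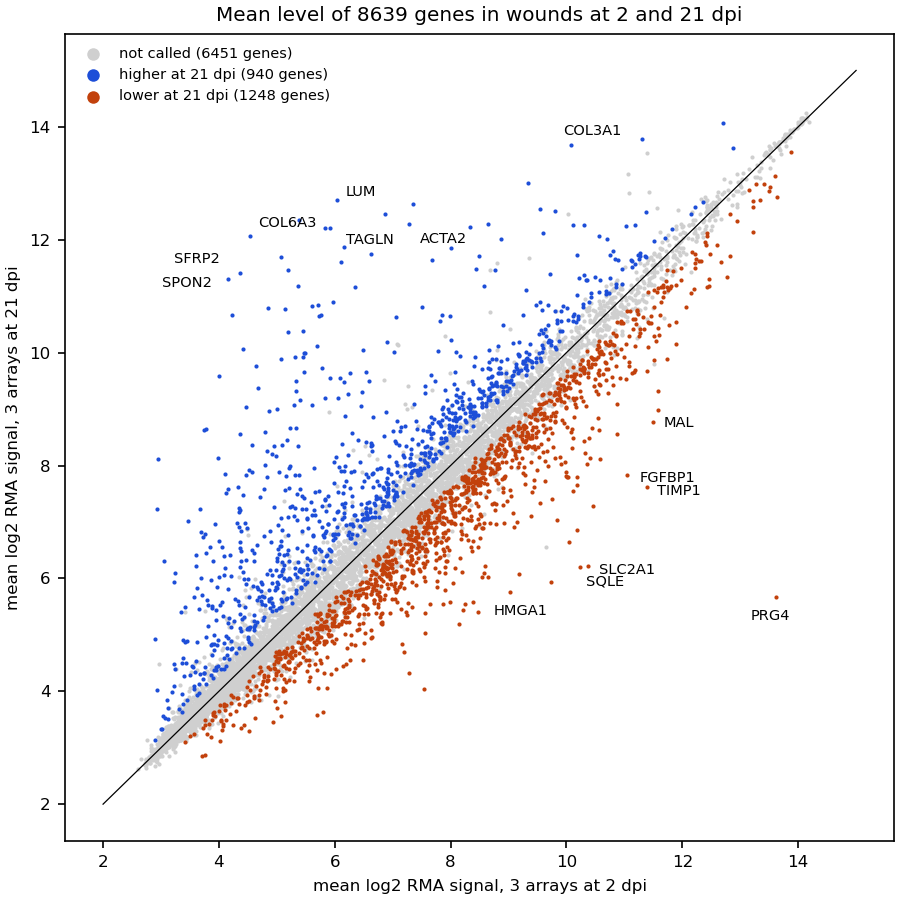
Mean log2 RMA signal of 8639 genes over the 3 arrays at 2 dpi (horizontal axis) and the 3 at 21 dpi (vertical axis), with the line of equal signal; blue points are the 940 genes called higher at 21 dpi, orange points the 1248 called lower. Among the genes farthest above the line are the matrix genes COL6A3 and LUM, the secreted frizzled-related SFRP2 and skeletal muscle markers such as MYL3 (not labelled). PRG4 lies farthest below it.

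Of the 20 genes with the largest rises, 3 are collagens, 7 are in the list of matrix proteoglycans and glycoproteins and 5 are skeletal muscle markers. Of the 20 with the largest falls, 4 are in the list of sterol synthesis genes, 2 each are suprabasal markers, nerve markers and stem cell or blastema regulators, and no other list holds more than 1. The largest rise belonged to COL6A3, a chain of the microfibrillar collagen VI. Its probe axo00277-f_at read 6.04, 3.98 and 3.60 in the 3 arrays at 2 dpi and 12.18, 11.94 and 12.10 at 21 dpi. The 21 dpi arrays lie close together, the 2 dpi arrays spread far more widely with replicate 1 the highest, and the groups are well apart (difference 7.54, SE 0.57, adjusted p = 3.53e-05).

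**Figure D2:**
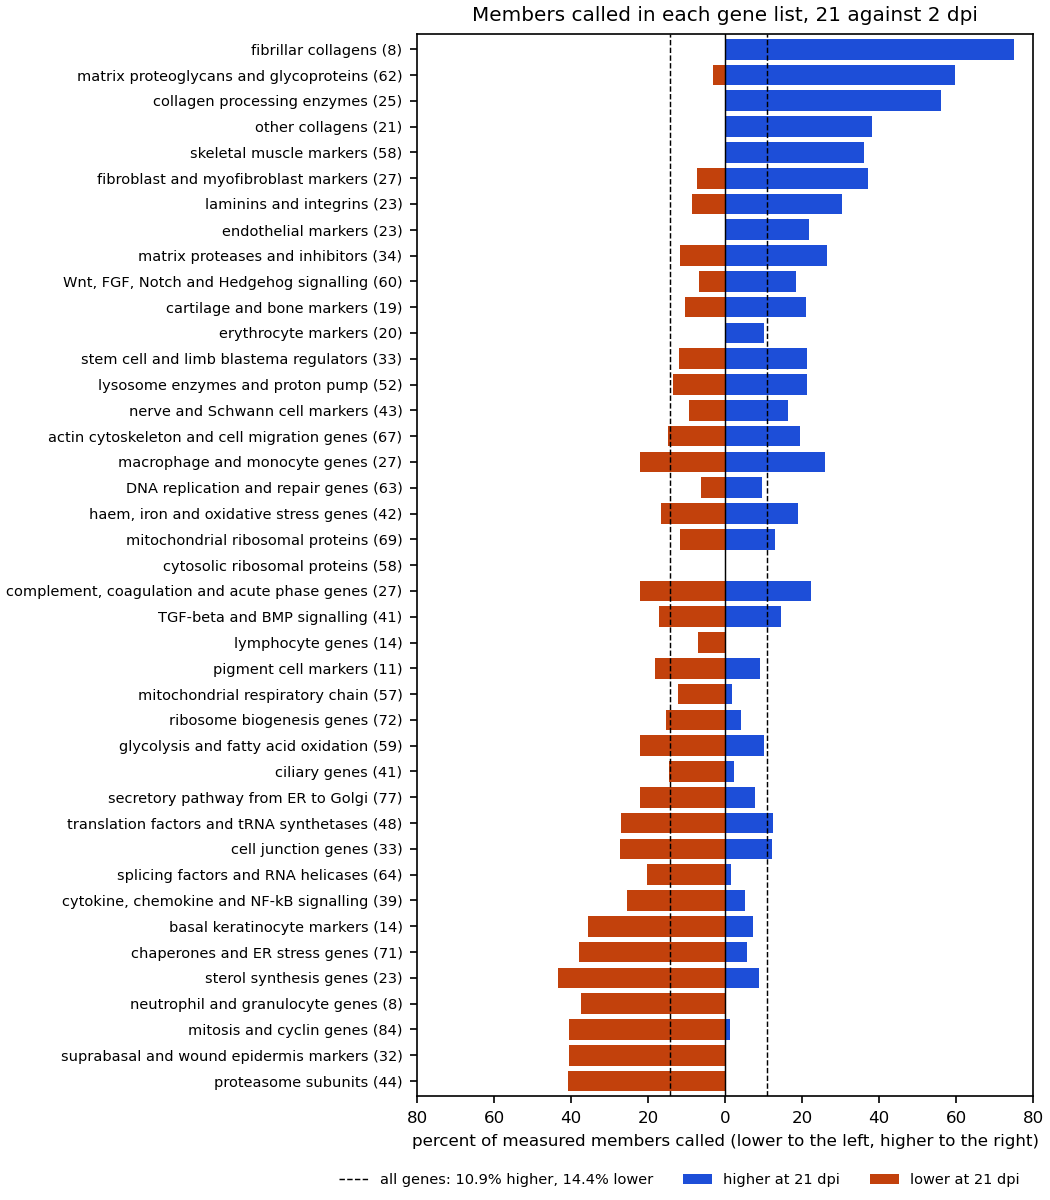
Percent of the measured members of 41 gene lists called higher (blue, to the right) or lower (orange, to the left) at 21 against 2 dpi, with the number measured in parentheses; dashed lines mark the 10.9% and 14.4% of all genes called in each direction. Collagens and other matrix lists reach farthest right, and sterol synthesis genes, proteasome subunits, suprabasal markers and mitosis genes farthest left.

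Fibrillar collagens form the banded fibres that give dermis its strength. Of 8 measured, 6 rose and none fell, with a median difference of 3.41, and the 6 were COL1A1, COL1A2, COL3A1, COL5A1, COL5A2 and COL11A1. COL1A1, a chain of type I collagen, read 11.13, 9.96 and 9.14 at 2 dpi and 13.59, 13.79 and 13.66 at 21 dpi (difference 3.60, SE 0.50, adjusted p = 0.000874). COL1A2, the partner chain in type I collagen, read 10.00, 9.31 and 8.68 against 13.04, 12.94 and 13.02 (difference 3.67, SE 0.33). The 2 chains thus moved by amounts that differ by less than either error. COL3A1 was already bright at 2 dpi (11.70, 11.79 and 10.45) and reached 13.80, 13.79 and 13.76 (difference 2.47, SE 0.30). COL11A1, which helps set fibril diameter, rose from 5.75, 5.47 and 5.20 to 9.71, 9.66 and 9.61 (difference 4.19, SE 0.25), far above its mean of 4.21 in uninjured skin. COL2A1, the cartilage collagen, stayed dim, at 5.09 to 5.29 against 5.09 to 5.47, and its difference of 0.10 had a 95% confidence interval of -0.21 to 0.41. A second and dimmer COL2A1 probe was called higher (difference 1.13, adjusted p = 0.0218).

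Of 21 other collagens, 8 rose and none fell. These were COL4A1, COL4A2, COL6A1, COL6A2, COL6A3, COL8A1, COL12A1 and COL28A1. COL6A1, COL6A2 and COL6A3, 3 chains of collagen VI, had the largest differences in the group. COL6A1 read 6.95, 5.87 and 5.67 against 12.17, 11.62 and 11.84 (difference 5.71, SE 0.43), and COL6A2 read 6.45, 4.91 and 4.23 against 11.74, 11.27 and 11.36 (difference 6.26, SE 0.58). For each of these 3 chains, 2 dpi replicate 1 was the highest of the early arrays and still lay below every late array. A further chain, COL6A6, was dim (4.22, 4.09 and 4.27 against 4.38, 4.32 and 4.25) and was not called (difference 0.13, SE 0.12). COL12A1, a collagen that decorates the surface of type I fibrils, read 5.73, 4.86 and 5.81 against 10.10, 10.01 and 9.90 (difference 4.53, SE 0.41, adjusted p = 9.20e-05), and 3 of its 4 other probes were called the same way. The basement membrane chains COL4A1 and COL4A2 differed by 3.47 (SE 0.52) and 3.78 (SE 0.50). COL17A1, a hemidesmosome collagen of basal keratinocytes, was bright at both times (11.73 to 12.54 against 11.14 to 11.95) and was not called, with a 95% interval of -1.09 to 0.15. COL7A1, the anchoring fibril collagen, read 8.27 to 9.54 against 9.26 to 9.97 and was not called either (interval 0.02 to 1.42, adjusted p = 0.137). Counts of both collagen groups stayed at 6 and 8 whichever array was left out.

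**Figure D3:**
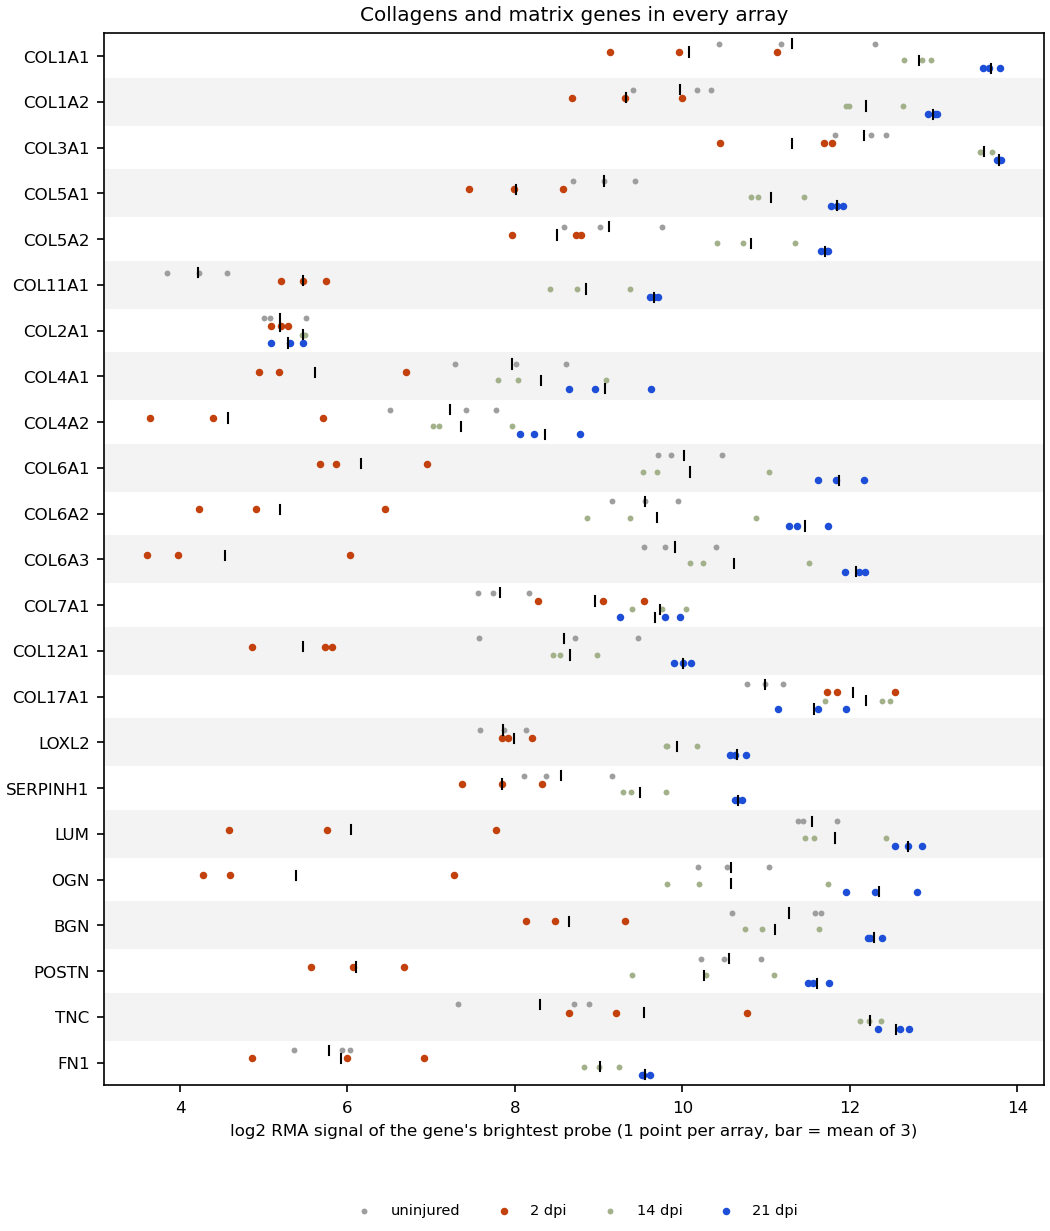
Log2 RMA signal of 23 collagens and matrix genes in all 12 arrays (horizontal axis; 1 point per array, coloured by group, bar at the group mean). The 21 dpi points lie close together and to the right of the 2 dpi points for the genes called, while those of COL2A1, COL7A1 and COL17A1 overlap.

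The list of collagen processing genes holds enzymes and chaperones that modify, fold and cross-link collagen, and also the secreted protein CTHRC1. Of its 25 measured members 14 were higher and none lower, with a median difference of 0.94. LOXL2, a lysyl oxidase that starts collagen cross-links, read 7.92, 8.21 and 7.84 against 10.76, 10.57 and 10.63 (difference 2.66, SE 0.16, adjusted p = 1.38e-05). CTHRC1, a secreted protein of wound fibroblasts, read 9.52, 9.82 and 9.42 against 12.09, 12.16 and 12.09 (difference 2.53, SE 0.11), with a mean of only 6.85 in uninjured skin. Both were tight within each time point. The prolyl isomerases FKBP7 and FKBP10 rose by 3.04 (SE 0.25) and 1.54 (SE 0.14). SERPINH1, a chaperone of procollagen, rose by 2.81 (SE 0.28), BMP1, which trims procollagen, by 2.18 (SE 0.20), and LOXL1 by 1.47 (SE 0.33). Leaving out any 1 array gave 13 to 15 higher. No member of the collagen and collagen processing lists was lower in limma even before adjustment, at a p under 0.05.

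Of 62 matrix proteoglycans and glycoproteins, 37 rose and 2 fell, with a median difference of 1.75. LUM (lumican), a small leucine-rich proteoglycan that binds collagen fibrils, read 7.77, 5.76 and 4.58 against 12.86, 12.53 and 12.70 (difference 6.66, SE 0.62), and OGN (osteoglycin) read 7.28, 4.59 and 4.28 against 12.80, 11.96 and 12.29 (difference 6.97, SE 0.73). In both, 2 dpi replicate 1 was again the highest early array. The uninjured mean of LUM, 11.55, lay far above every 2 dpi array. Against uninjured skin, LUM at 21 dpi was not called in limma (difference 1.15, adjusted p = 0.278). Of the same family, BGN rose by 3.64 (SE 0.35), DCN by 1.56 (SE 0.32) and EPYC, at a dim level, by 0.80 (SE 0.19), a call lost without 21 dpi replicate 1 or 21 dpi replicate 3 (adjusted p up to 0.0579). FBN1, the fibrillin of elastic microfibrils, rose by 5.94 (SE 0.75), FBLN5, an elastic fibre assembly protein, by 3.99 (SE 0.45), and MGP, an inhibitor of calcification, by 6.37 (SE 0.46).

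Glycoproteins of the same list that act on cells from the matrix included POSTN, TNC and FN1. POSTN (periostin) read 6.67, 6.07 and 5.56 against 11.75, 11.51 and 11.56 (difference 5.51, SE 0.39), and both of its other probes were called higher. TNC (tenascin C) read 10.78, 9.21 and 8.65 against 12.34, 12.71 and 12.59 (difference 3.00, SE 0.51). FN1 (fibronectin) read 6.91, 5.99 and 4.85 against 9.61, 9.51 and 9.53 (difference 3.63, SE 0.40). For TNC, FN1 and POSTN the uninjured means, 8.30, 5.78 and 10.55, lay below every 21 dpi array. That of POSTN also lay far above every 2 dpi array. SPON2, a secreted matrix protein, read 5.33, 3.87 and 3.28 against 12.16, 10.33 and 11.45 (difference 7.15, SE 0.80), and THBS2 rose by 3.90 (SE 0.29). The members lower at 21 dpi were ACAN and BCAN, proteoglycans that bind hyaluronan, and at most 1 of them passed the threshold without any single 2 dpi or 21 dpi array. For BCAN the difference was -3.33 (SE 0.92, adjusted p = 0.0264), and a dimmer second probe was called in the opposite direction (0.50). That call was lost without 2 dpi replicate 1, 2 dpi replicate 3, 21 dpi replicate 2 or 21 dpi replicate 3, with adjusted p up to 0.0785, whereas the count of higher members stayed between 36 and 39 over all arrays left out.

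Laminins build the basement membrane sheet and integrins attach cells to it. Of 23 measured, 7 rose and 2 fell, LAMB3 and ITGA6, of which 1 remained without uninjured replicate 2, 2 dpi replicate 2, 2 dpi replicate 3, 14 dpi replicate 3 or any single 21 dpi array. LAMA1 read 3.57, 3.96 and 3.49 against 7.83, 6.90 and 6.98 (difference 3.56, SE 0.33), with an uninjured mean of 4.01. LAMB1 rose by 2.75 (SE 0.39), LAMA2 by 2.71 (SE 0.44) and LAMA4 by 2.09 (SE 0.47). Dimmer LAMB1 probes were called higher (0.88) or not called (-0.24 and 0.09), and another LAMA4 probe was not called (0.01). The heparan sulfate proteoglycan HSPG2 (perlecan) of the same sheet rose by 3.58 (SE 0.30). LAMB3, a chain of the laminin under keratinocytes, went the other way, from 6.09, 6.39 and 6.18 to 5.50, 5.25 and 5.47 (difference -0.82, SE 0.13, adjusted p = 0.00161).

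Matrix proteases and their inhibitors were called in both directions. Of 34, 9 were higher (26.5%) and 4 lower (11.8%), against 10.9% and 14.4% of all genes. Without 21 dpi replicate 1 only 5 were higher. TIMP1, an inhibitor of metalloproteinases, read 10.69, 11.76 and 11.70 at 2 dpi and 7.57, 7.70 and 7.60 at 21 dpi (difference -3.76, SE 0.71, adjusted p = 0.00435), and the late level was near the uninjured mean of 8.02. A second TIMP1 probe was dim at both times (4.32 and 4.10) and not called. MMP28, a metalloproteinase of keratinocytes, read 5.94, 5.36 and 5.80 against 3.54, 3.82 and 3.38, which is below the lower quartile of the arrays (difference -2.12, SE 0.18). MMP14, a membrane-bound collagenase of stromal cells, read 6.50, 6.32 and 6.52 against 8.36, 7.90 and 7.94 (difference 1.62, SE 0.17), and the secreted serine protease HTRA1 rose by 1.79 (SE 0.19). The 2 probes annotated as MMP2, gelatinase A, opposed each other. The brighter, axo05645-r_at, read 10.14, 10.90 and 11.58 against 8.79, 8.40 and 8.49 (difference -2.31, adjusted p = 0.0215), and the other, axo10176-f_at, read 5.54, 5.09 and 5.21 against 10.90, 10.37 and 10.52 (difference 5.32, adjusted p = 1.79e-05). No direction is therefore given for MMP2. MMP9, MMP17 and MMP19 differed by 0.19, -0.17 and -0.17 and were not called.

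Of 27 fibroblast and myofibroblast markers, 10 rose and 2 fell (1 without 2 dpi replicate 3, 21 dpi replicate 1 or 21 dpi replicate 3). TAGLN (transgelin), an actin-binding protein of contractile cells, read 6.55, 5.97 and 5.22 against 12.22, 12.27 and 12.14 (difference 6.30, SE 0.32, adjusted p = 9.51e-06). ACTA2, the smooth muscle actin of myofibroblasts and vessel walls, read 7.99, 7.54 and 6.33 against 11.97, 12.52 and 12.34 (difference 4.99, SE 0.35), and its uninjured mean of 12.03 lay at the late level. Its probe axo07404-f_at was called higher too (6.07), while axo07405-f_s_at was not called (3.23). MYL9, CNN1 and MYH11, which act in the same contractile apparatus, rose by 1.87 (SE 0.14), 2.04 (SE 0.31) and 2.52 (SE 0.32), and FSTL1, a secreted glycoprotein of mesenchymal cells, by 2.71 (SE 0.17). A dim MYH11 probe was not called (0.20). CDH11, a mesenchymal cadherin, rose by 4.58 (SE 0.40). VIM, an intermediate filament of mesenchymal cells, was bright throughout, at 12.68, 13.03 and 12.93 against 13.60, 13.68 and 13.61 (difference 0.75, SE 0.11). PDGFRA, a receptor of fibroblasts, was dim (3.79 to 4.01 against 4.14 to 4.63) and was not called.

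Endothelial markers rose in 5 of 23 cases and none fell, with 1 member lower at an unadjusted p under 0.05. VWF, the clotting factor stored in vessel walls, read 4.95, 3.94 and 4.18 against 8.88, 8.33 and 8.46 (difference 4.20, SE 0.37). Its uninjured mean of 8.28 lay far above every 2 dpi array and near the 21 dpi level. Its probes axo07039-f_at and axo07040-f_at were dim and not called (-0.07 and 0.19). MMRN1 rose by 3.30 (SE 0.52), PECAM1, an endothelial adhesion molecule, by 1.50 (SE 0.27) and ANGPTL2 by 1.59 (SE 0.18). The uninjured mean of PECAM1, 6.28, also lay above every 2 dpi array of that gene. KDR and CDH5, which define endothelium, lay near the lower quartile at both times and were not called, KDR with an interval of -0.18 to 0.19.

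Skeletal muscle lies under the skin, and its markers differed between 2 and 21 dpi but also varied widely within groups. Of 58 measured, 21 rose and none fell at either the adjusted threshold or an unadjusted p under 0.05, with a median difference of 1.92. Without 2 dpi replicate 2 or 21 dpi replicate 1 the count was 13 or 11. MYL3, a myosin light chain of slow fibres, read 7.92, 3.68 and 3.61 against 12.53, 10.76 and 11.79 (difference 6.62, SE 1.36), and TNNT1, a slow troponin, read 7.33, 4.36 and 4.41 against 12.04, 10.27 and 11.25 (difference 5.82, SE 1.12). TNNT3, a fast troponin, read 8.59, 5.40 and 3.90 against 11.63, 10.18 and 10.90 (difference 4.94, SE 1.27, adjusted p = 0.0192). That call was lost without 2 dpi replicate 2, 2 dpi replicate 3, 21 dpi replicate 1 or 21 dpi replicate 3, with adjusted p up to 0.0693. The muscle creatine kinase CKM and the fast troponin TNNC2 were bright in every array and overlapped between the groups, at 9.42 to 12.91 against 12.70 to 13.62 for CKM, and were not called (differences 2.11 and 2.42). The transcription factors MYF5 and MYOG, which drive muscle formation, rose as well. MYF5 read 4.36, 3.89 and 4.03 against 6.08, 5.90 and 6.19 (difference 1.96, SE 0.22), and MYOG read 4.39, 3.74 and 4.43 against 6.89, 6.28 and 6.10 (difference 2.24, SE 0.27). ANKRD1, a stress-responsive protein of muscle, rose by 5.22 (SE 0.91).

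The mean of the 58 muscle markers, as a deviation from each gene's 12-array mean, was -0.29, -1.64 and -1.86 at 2 dpi and 1.31, 0.28 and 0.81 at 21 dpi. In uninjured skin the muscle mean was 1.33, 1.26 and -0.51, and at 14 dpi -0.61, 0.72 and -0.81. It thus also varied between arrays of the same group. The array with the highest muscle mean at 2 dpi, replicate 1, was also the one with the highest COL6A1, COL6A2, COL6A3, LUM and OGN at that time. The mean of 46 epidermal markers moved the other way, at 0.45, 0.47 and 0.28 against -0.48, -0.16 and -0.30. Neither mean overlapped between 2 and 21 dpi, so a fit with either as a covariate takes away much of what separates these time points. With the muscle mean as a covariate 809 probes were called, and with the epidermal mean 307. Of the fibrillar collagens, 6 of 8 were called higher with the muscle mean and 3 with the epidermal mean. For the matrix glycoproteins the counts were 24 and 13 of 62, and for the collagen processing genes 10 and 5 of 25. The part of these mixtures in the differences was not tested beyond this.

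**Figure D4:**
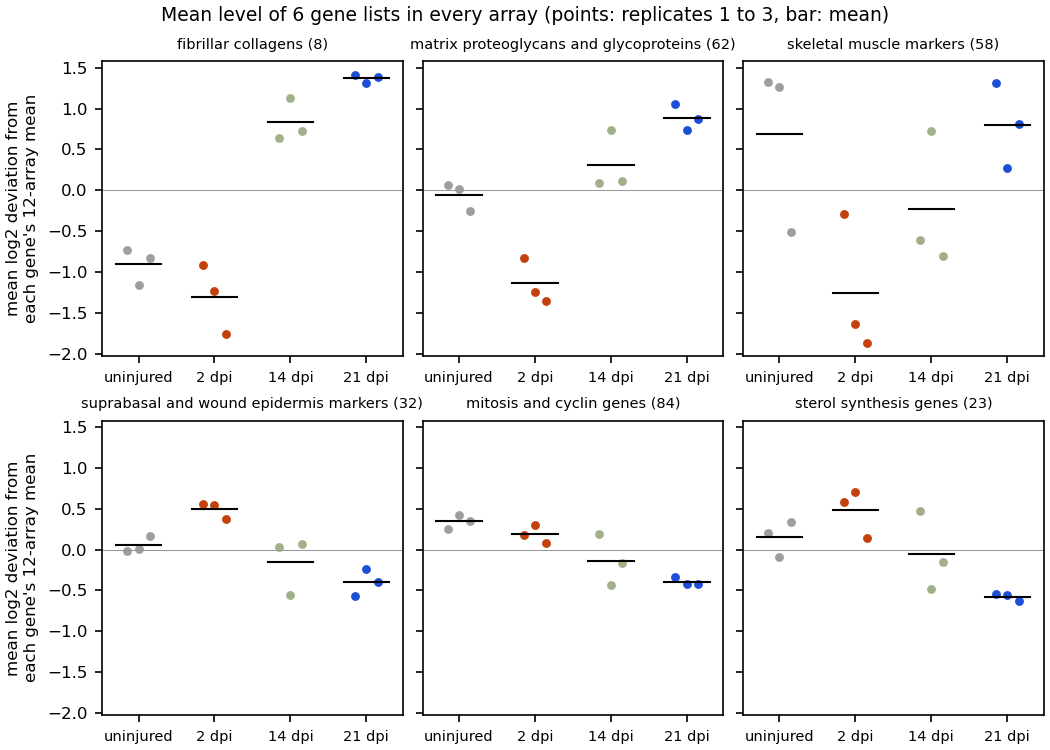
Mean of 6 gene lists in each of the 12 arrays, as log2 deviation from each gene's own mean over the arrays (vertical axis), by group (horizontal axis; points are replicates 1 to 3 from left to right, bars the group mean). The 2 dpi and 21 dpi points do not overlap in any of the 6 lists, and muscle markers show the widest spread within groups. The 6 were chosen from the full set of gene lists. Means of many lists not drawn were separated as well, also where the shift was small, while those of some lists overlapped. The lack of overlap therefore does not set these 6 apart.

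Of 32 suprabasal and wound epidermis markers, 13 were lower at 21 dpi and none higher on each gene's brightest probe, with a median difference of -0.67. None was higher at an unadjusted p under 0.05 either (18 lower). Leaving out single arrays gave 10 to 17 lower. With the mean of each gene's probes 12 were lower and 2 higher. FGFBP1, a carrier protein of fibroblast growth factors made by keratinocytes, read 11.09, 11.47 and 10.59 against 8.43, 7.20 and 7.85 (difference -3.22, SE 0.48). EHF, an epithelial transcription factor, read 7.80, 8.25 and 9.37 against 5.64, 5.44 and 5.12 (difference -3.08, SE 0.43). In uninjured skin both were as high as at 2 dpi, with means of 11.53 and 9.36. UPK3B, a uroplakin of surface epithelia, behaved otherwise: it read 5.50, 6.12 and 5.97 at 2 dpi and fell to a mean of 4.06 ± 0.09 (SD, n = 3) at 21 dpi (difference -1.81, SE 0.15), the same as its mean of 4.06 in uninjured skin. TGM1, which cross-links the cornified envelope, fell by 2.62 (SE 0.59), LRRC31 by 1.92 (SE 0.27) and DSC2, a desmosomal cadherin, by 1.09 (SE 0.21). EPCAM, an adhesion molecule of epithelia, stayed bright and fell by 0.58 (SE 0.13), from 13.47 to 13.62 down to 12.76 to 13.07. The desmosome gene DSP was not called (12.12 to 12.72 against 12.13 to 12.54, interval -0.49 to 0.34). With the muscle or the epidermal mean as a covariate, 2 or 1 of the 32 were called lower. With the epidermal mean 7 were lower and 8 higher before adjustment, at a p under 0.05. These 32 genes are among the 46 that make up the epidermal mean. The counts with that covariate were therefore largely set in advance and cannot show whether these markers fell.

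KRT8, a keratin of simple epithelia, was annotated to 4 probes that did not move alike. The brightest read 13.37, 12.85 and 12.91 against 13.01, 13.32 and 13.24 and was not called. The other 3 were called higher at 21 dpi, by 3.08, 2.54 and 2.76.

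Of 14 basal keratinocyte markers, 5 fell and 1 rose. Without 2 dpi replicate 2, 21 dpi replicate 1 or 21 dpi replicate 3 only 2 fell, and without 2 dpi replicate 3, uninjured replicate 2 or 14 dpi replicate 3 it was 3. EGFR, the receptor through which growth factors drive keratinocyte migration, read 8.34, 8.34 and 7.90 against 6.73, 6.92 and 6.69 (difference -1.42, SE 0.16, adjusted p = 0.000286). TP63, a transcription factor of basal keratinocytes, read 7.33, 7.44 and 7.40 against 6.12, 6.86 and 6.69 and was not called (difference -0.83, SE 0.33, adjusted p = 0.106). The riser was DST, a linker of intermediate filaments found in epidermis, nerve and muscle, at 4.34, 4.17 and 3.82 against 8.09, 7.69 and 7.79 (difference 3.75, SE 0.30). Of its dimmer probes, axo06626-r_at was called higher (1.14), while axo06635-f_at, axo07536-f_at and axo07537-f_at were not called (0.23, -0.17 and 0.31).

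The largest fall of any gene was in PRG4, annotated as proteoglycan 4 or lubricin, a lubricating glycoprotein best known from joint surfaces in mammals. Its single probe axo05637-f_at read 13.81, 13.71 and 13.33 at 2 dpi, among the brightest genes on the array, and 4.55, 6.61 and 5.84 at 21 dpi (difference -7.95, SE 1.05, adjusted p = 0.000692). Its uninjured mean was 10.69 and its mean at 14 dpi 8.77. An unnamed probe, axo22108-r_at, behaved similarly, with 12.77, 13.38 and 13.29 against 5.13, 7.20 and 6.51 (difference -6.86, SE 1.10). Of the 9084 probes with no symbol, 759 rose and 953 fell, beside 1882 (9.39%) and 2487 (12.4%) of all 20035 probes. The largest rise among those with no symbol was axo29346-f_at, which read 4.18, 3.28 and 3.24 against 10.13, 9.55 and 9.75 (difference 6.25, SE 0.42). That rise was close to that of COL6A2 (6.26) and smaller than that of COL6A3 (7.54).

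**Figure D5:**
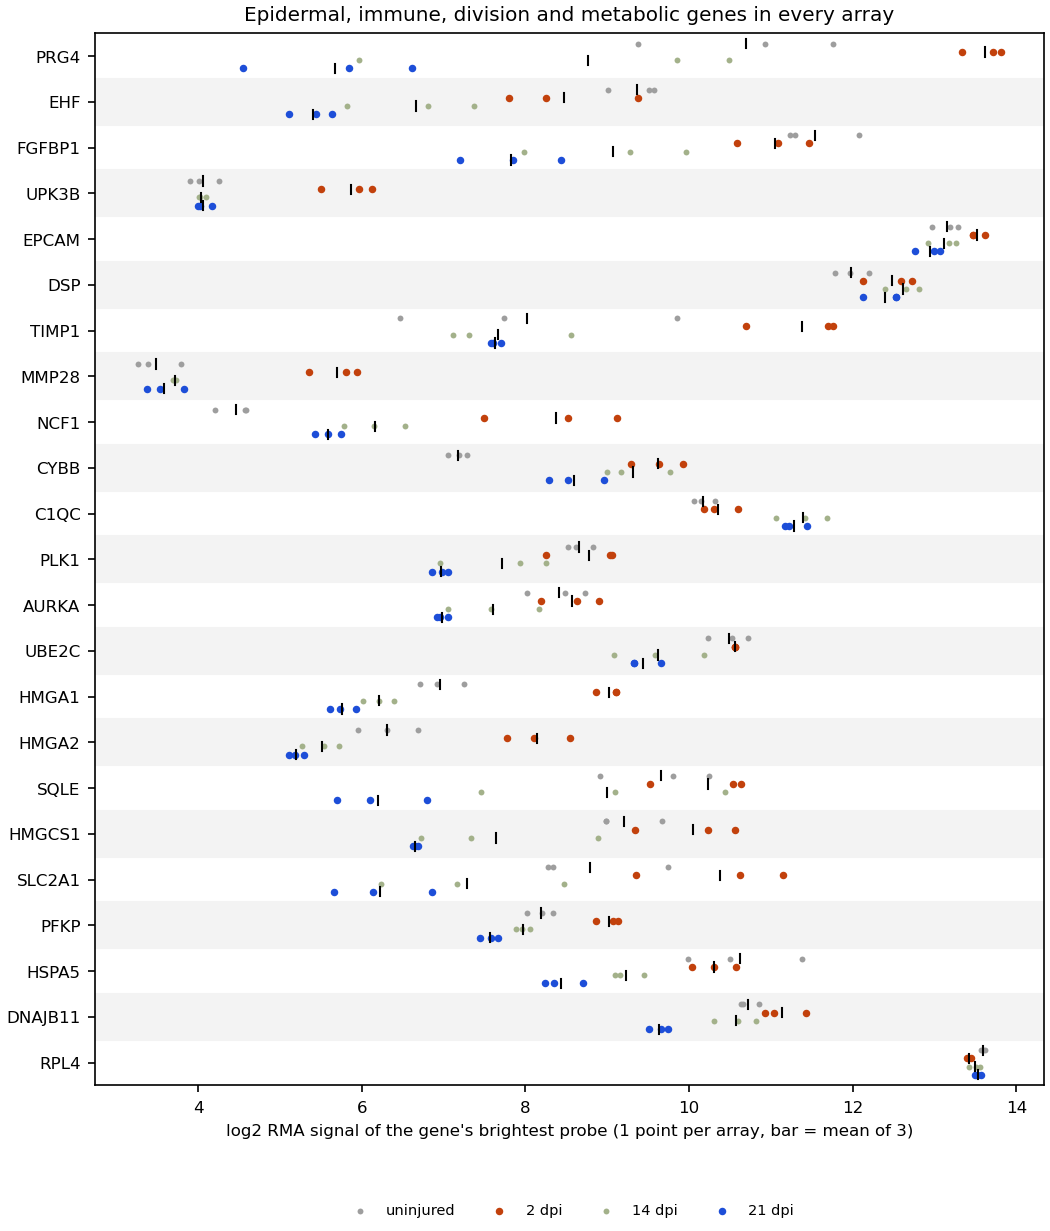
Log2 RMA signal of 23 epidermal, immune, cell division and metabolic genes in all 12 arrays (horizontal axis; 1 point per array, coloured by group, bar at the group mean). The 2 dpi points lie to the right of the 21 dpi points for the genes called lower, with the widest gap in PRG4, while DSP overlaps and RPL4 barely moves.

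Of 8 neutrophil and granulocyte genes, 3 fell and none rose at the adjusted or unadjusted threshold. All 3 belong to the NADPH oxidase that makes the oxidative burst: NCF1 read 7.49, 9.12 and 8.52 against 5.74, 5.59 and 5.43 (difference -2.79, SE 0.34), CYBB fell by 1.03 (SE 0.23) and CYBA by 1.07 (SE 0.18). The oxidase is shared with macrophages. NCF1 at 21 dpi still lay above its uninjured mean of 4.46.

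Among 27 macrophage and monocyte genes 7 rose (25.9%) and 6 fell (22.2%), against 10.9% and 14.4% of all genes. The rise count was 4 without 2 dpi replicate 1 and 3 without 2 dpi replicate 3, 21 dpi replicate 1 or 21 dpi replicate 3. Lower were SPI1, a transcription factor of myeloid cells (6.05, 6.78 and 7.60 against 5.35, 5.11 and 5.24, difference -1.58, SE 0.30), TLR2, a receptor for microbial lipoproteins (-1.48, SE 0.29), and the kinase LYN (-0.88, SE 0.15). The higher members included GPNMB, a glycoprotein of lysosome-rich macrophages and also a member of the pigment cell list. It read 10.72, 11.44 and 10.94 against 12.33, 12.20 and 12.19 (difference 1.21, SE 0.19), CTSD, a lysosomal protease, rose by 0.82 (SE 0.11) and C1QC, a chain of complement C1q, by 0.92 (SE 0.16). The general macrophage markers CD68, CSF1R and MARCO were not called, with differences of 0.37, 0.20 and 0.97, and AIF1 narrowly missed the threshold (-0.70, SE 0.23, adjusted p = 0.0507).

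Of 39 cytokine, chemokine and NF-kB genes, 10 fell and 2 rose, and the fall count was 5 or 6 without 21 dpi replicate 3, 2 dpi replicate 3 or 21 dpi replicate 2. NFKBIA, the inhibitor that NF-kB itself induces, read 7.88, 8.45 and 9.46 against 6.25, 6.16 and 6.27 (difference -2.37, SE 0.48), and SOCS1, a feedback inhibitor of cytokine receptors, fell by 1.44 (SE 0.25). The 2 risers were TNFAIP6, a hyaluronan-binding protein, at 6.87, 5.95 and 6.57 against 9.57, 9.06 and 9.30 (difference 2.84, SE 0.29), and CXCL12, a stromal chemokine, which rose by 1.51 (SE 0.22). Complement and coagulation genes had 6 higher (22.2%) and 6 lower (22.2%) of 27, against 10.9% and 14.4% of all genes, with 3 lower without 2 dpi replicate 2. F3, tissue factor, fell by 1.26 (SE 0.29), while C7 rose by 3.17 (SE 0.45). PLA2G7, a phospholipase that inactivates platelet-activating factor, fell from 9.34, 9.81 and 10.03 to 5.39, 6.44 and 5.96 (difference -3.80, SE 0.45), and a dim second probe was not called.

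Genes of mitosis and the cyclins were lower at 21 dpi in 34 of 84 cases and higher in 1 (0 without uninjured replicate 2, 2 dpi replicate 2, 2 dpi replicate 3, 14 dpi replicate 3 or any single 21 dpi array, where limma's unadjusted count in all arrays was 2), with a median difference of -0.54. This count rested on single arrays more than the matrix counts did: it fell to 16 when 2 dpi replicate 2 was left out, and to 17, 22 or 15 when 21 dpi replicate 1, 2 or 3 was. PLK1, a kinase of mitotic entry, read 9.06, 9.03 and 8.25 against 7.05, 6.98 and 6.86 (difference -1.82, SE 0.31), and AURKA, a kinase of the spindle poles, read 8.90, 8.63 and 8.19 against 7.05, 6.92 and 6.96 (difference -1.60, SE 0.28). UBE2C, which marks cyclins for destruction, read 10.56 in each early array and 9.66, 9.33 and 9.33 at 21 dpi (difference -1.12, SE 0.23). The uninjured means of the 3 genes, 8.65, 8.41 and 10.49, were near the 2 dpi level. LMNB1 fell by 1.80 (SE 0.26), ANLN, a scaffold of the cleavage furrow, by 1.66 (SE 0.36) and the spindle motor KIF11 by 1.38 (SE 0.26). With the muscle mean as a covariate 3 of the 84 were called lower, and with the epidermal mean none were and 1 was called higher (before adjustment, at a p under 0.05, 3 were lower and 3 higher).

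Of 63 DNA replication and repair genes, 6 were higher (9.52%) and 4 lower (6.35%), against 10.9% and 14.4% of all genes. The difference from the mitosis list was not tested. PCNA, the replication clamp, read 10.65, 11.28 and 10.24 against 11.13, 10.99 and 11.06 (interval -0.14 to 0.82), and the helicase subunits MCM2 and MCM5 were not called (intervals -0.16 to 0.91 and -0.71 to 0.94). DNMT1, which copies DNA methylation at replication, rose by 1.03 (SE 0.15), while RPA2, a single-strand binding protein, fell by 1.13 (SE 0.17). The count of lower members was 8 without 14 dpi replicate 1, 7 without 14 dpi replicate 2, 9 with only the 6 arrays compared and 16 with array weights.

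HMGA1 and HMGA2, chromatin proteins found in embryonic and proliferating cells, were among the sharpest falls. HMGA1 read 9.10, 8.87 and 9.10 against 5.74, 5.93 and 5.61 (difference -3.26, SE 0.15, adjusted p = 6.28e-06), and HMGA2 read 7.77, 8.10 and 8.55 against 5.29, 5.18 and 5.11 (difference -2.95, SE 0.22). At 21 dpi both lay below their uninjured means of 6.96 and 6.31. Of 33 stem cell and limb blastema regulators as a whole, 7 rose (21.2%) and 4 fell (12.1%), against 10.9% and 14.4% of all genes. Only 2 fell without 2 dpi replicate 2 or any single 21 dpi array. KAZALD1, a secreted protein known from axolotl limb blastemas, read 6.31, 5.60 and 5.27 against 10.36, 10.92 and 10.69 (difference 4.92, SE 0.34), with an uninjured mean of 5.62. HOXA13, a gene of the distal limb in embryos, read 3.05, 3.12 and 2.98 against 7.84, 4.64 and 6.45 (difference 3.26, SE 0.69), and the late arrays differed widely among themselves. SALL4, a stem cell transcription factor, read 5.58, 6.24 and 5.39 against 6.22, 5.34 and 6.01. These overlap, and the difference of 0.12 had an interval of -0.56 to 0.80, around a level above the uninjured mean of 4.20.

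Of 60 genes of the Wnt, FGF, Notch and Hedgehog pathways, 11 rose (18.3%) and 4 fell (6.67%), against 10.9% and 14.4% of all genes. Only 2 fell without 2 dpi replicate 1, 21 dpi replicate 2 or 21 dpi replicate 3. SFRP2, a secreted frizzled-related protein of the kind that binds Wnt ligands, read 5.19, 3.71 and 4.21 against 11.90, 10.95 and 11.38 (difference 7.04, SE 0.47), the third largest rise of any gene. SFRP4 rose by 2.02 (SE 0.20), SFRP5 by 1.05 (SE 0.15), SFRP1 by 0.62 (SE 0.11) and the dickkopf family member DKK3 by 3.43 (SE 0.22). The receptor FZD2 rose by 2.19 (SE 0.32), and a dim probe of the same gene was not called (-0.06). The TGF-beta and BMP list had 6 higher (14.6%) and 7 lower (17.1%) of 41, near the 10.9% and 14.4% of all genes. Only 4 were lower without 2 dpi replicate 2, 2 dpi replicate 3 or 21 dpi replicate 3. TGFBI, a matrix protein that TGF-beta induces, rose by 2.16 (SE 0.25) and the ligand TGFB2 by 0.88 (SE 0.12) from a dim level, while SMAD3, which carries the TGF-beta signal to the nucleus, read 6.54, 6.86 and 6.99 against 5.50, 5.18 and 5.44 (difference -1.42, SE 0.13). BMPR2, a BMP receptor, and ID2, a target of BMP signals, fell by 1.72 (SE 0.21) and 1.69 (SE 0.26). The BMPR2 probes axo07007-f_at and axo07008-r_at were called lower too (-0.72 and -1.46), while axo07009-f_at was not called (0.13).

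Genes of sterol synthesis had the largest share of falls of the 41 lists. Of 23, 10 were lower, with 9 to 11 lower over the arrays left out. The 2 higher members were EBP and ABCA1, of which ABCA1 is a cholesterol exporter and not an enzyme of synthesis. Only 1 was higher without 2 dpi replicate 1, 2 dpi replicate 2 or any single 21 dpi array. With the muscle mean as a covariate 1 was called lower, and with the epidermal mean none in limma (before adjustment, at a p under 0.05, 1 was lower and 1 higher). SQLE, squalene epoxidase, read 10.54, 10.63 and 9.53 against 6.79, 5.70 and 6.10 (difference -4.04, SE 0.66), and HMGCS1, which acts at the start of the mevalonate pathway, read 10.23, 10.56 and 9.34 against 6.62, 6.65 and 6.69 (difference -3.39, SE 0.48). In both, 2 dpi replicate 3 was the lowest of the early arrays. FDPS, CYP51A1, MVK, LSS and AACS, further enzymes of the route, fell by 3.17 (SE 0.58), 3.09 (SE 0.55), 2.52 (SE 0.55), 2.31 (SE 0.47) and 2.20 (SE 0.52). A dim LSS probe was not called (-0.235). The uninjured mean of SQLE, 9.65, lay within the range of its 2 dpi arrays, and that of HMGCS1, 9.21, lay below all of its 2 dpi arrays. Both lay far above every 21 dpi array of the same gene.

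Genes of glucose uptake and glycolysis were among those lower at 21 dpi. Of 59 genes of glycolysis and fatty acid oxidation, 13 fell (22%) and 6 rose (10.2%), against 14.4% and 10.9% of all genes. SLC2A1, the glucose transporter GLUT1, read 9.35, 10.63 and 11.15 against 5.66, 6.86 and 6.14 (difference -4.16, SE 0.64, adjusted p = 0.00152), and its other probe was called lower too. PFKP, a phosphofructokinase, read 8.86, 9.13 and 9.07 against 7.44, 7.67 and 7.58 (difference -1.46, SE 0.11), and PGAM1, PFKFB4 and LDHA fell by 2.47 (SE 0.33), 1.28 (SE 0.16) and 0.63 (SE 0.13). ACAA2, a thiolase of mitochondrial fatty acid oxidation, rose by 1.14 (SE 0.14). CPT1A, which admits fatty acids to mitochondria, rose by 2.13 (SE 0.26) on its bright probe and was called lower on a dim one (-0.47). HIF1A, the hypoxia-responsive factor, fell by 0.71 (SE 0.13), and DDIT4, which responds to hypoxia and stress, by 2.28 (SE 0.33).

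Chaperones fold new proteins and rescue misfolded ones. Of 71 chaperone and ER stress genes, 27 were lower (20 to 29 over the arrays left out) and 4 higher (2 without 2 dpi replicate 1, 2 dpi replicate 2 or any single 21 dpi array). With the muscle mean as a covariate 6 were called lower, and with the epidermal mean none in limma (16 were lower and 3 higher before adjustment, at a p under 0.05). HSPA5, the main chaperone of the endoplasmic reticulum, read 10.58, 10.30 and 10.04 against 8.36, 8.71 and 8.23 (difference -1.87, SE 0.30), and its partner DNAJB11 read 10.93, 11.04 and 11.43 against 9.66, 9.74 and 9.51 (difference -1.49, SE 0.16). The mitochondrial chaperonin HSPD1 fell by 1.29 (SE 0.22) and CALR, a lectin chaperone, by 1.07 (SE 0.15). The exceptions included the small heat shock proteins HSPB1 and HSPB8, abundant in muscle, which rose by 5.13 (SE 1.05) and 3.06 (SE 0.58). HSPB1 read 8.50, 5.97 and 5.40 against 12.20, 11.37 and 11.70, with 2 dpi replicate 1 the highest early array, as in the muscle markers.

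Of 44 proteasome subunits, 18 fell and none rose, also at an unadjusted p under 0.05 (24 lower), with small differences: the median was -0.31. PSMD12 read 10.79, 10.86 and 11.16 against 10.11, 10.06 and 10.01 (difference -0.88, SE 0.13). With either marker mean as a covariate no subunit was called in limma (at an unadjusted p under 0.05, 6 were lower with the muscle mean, and 5 lower and 2 higher with the epidermal mean). The 58 cytosolic ribosomal proteins gave 0 calls in limma, and before adjustment 3 passed 0.05 (2 of them higher), with a median of 0.04. RPL4 read 13.41, 13.45 and 13.40 against 13.50, 13.57 and 13.52 (interval -0.05 to 0.26).

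Genes of nerve and neuroendocrine cells moved in both directions, and the largest differences were falls. Of 43 nerve and Schwann cell markers, 7 rose (16.3%) and 4 fell (9.3%), against 10.9% and 14.4% of all genes. Only 3 or 4 were higher without 2 dpi replicate 2, 2 dpi replicate 3, 21 dpi replicate 1 or 21 dpi replicate 3. SCG2, a protein of secretory granules, read 7.53, 8.26 and 8.86 against 5.45, 5.61 and 5.26 (difference -2.78, SE 0.27), with an uninjured mean of 4.97. NPY, a neuropeptide, read 7.90, 7.46 and 7.30 against 5.79, 5.05 and 5.35 (difference -2.16, SE 0.34), with an uninjured mean of 3.95. Every 21 dpi array of both genes lay above these uninjured means. MAL, a membrane protein of myelin and of epithelia, read 11.38, 11.41 and 11.71 against 8.65, 8.90 and 8.75 (difference -2.73, SE 0.24). Higher were RELN, a secreted glycoprotein of the developing brain, by 1.83 (SE 0.32), and the microtubule regulator STMN3 by 1.15 (SE 0.17).

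The 14 dpi arrays share the fit with both groups, and their means are given only to place the levels. The 14 dpi mean lay between the 2 dpi and the 21 dpi means for 20 of the 20 largest rises and 19 of the 20 largest falls, against 5137 of all 8639 genes. The 20 largest changes in each direction were chosen for their distance between 2 and 21 dpi, so a mean between the ends is the more likely there. For COL6A3 the 14 dpi mean was 10.61, for COL1A1 12.82 and for KAZALD1 10.69. SFRP4 exceeded its 21 dpi level at 14 dpi, with a mean of 8.06 against 7.52, 7.12 and 7.19 in the late arrays. ANTXR2, a receptor for collagen VI and laminin, was the fall whose 14 dpi mean, 4.17, lay outside, below its 21 dpi values of 4.23, 4.55 and 4.21.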

How the data were processed

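RNA from skin punches was measured on 12 Affymetrix 1-colour arrays for axolotl transcripts. The authors deposited 1 log2 value per probe set and array, after background correction, normalisation and summary by RMA (Affymetrix Expression Console per the labels, the affy package per the methods; their versions and a genome build were not found in these sources). The step from raw intensities was left as made, so dim genes carry RMA's compression of low signals. Precision is limited by the number of arrays, 3 per group. Files of the human wounds, the qPCR and the knockdowns were not analysed here.

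All 20035 probe sets but controls entered a fit by lmFit and eBayes of limma 3.58.1 (R 4.3.3) as 4 group means over 12 arrays, with 8 residual and 2.43 prior degrees of freedom. The contrast was 21 minus 2 dpi, two-sided, adjusted by Benjamini-Hochberg, threshold 0.05, with no filter on low signal. Symbols came from the array's annotation (10951 probes with 1 symbol, 0 with several, 9084 with none), and of several probes the one brightest on average across the 12 arrays stood for the gene. Intervals are 95% and come from the same fit. The code was tested on simulated data.

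The members and the 41 gene lists were chosen with earlier results of these data known. Genes to be named were the 20 largest rises and 20 largest falls without overlap between the groups, in every list the 4 with the lowest adjusted p, all collagens, the genes the paper names for the wound, HMGA1 and HMGA2 (207 genes). Another 69, and ITGA6, ACAN, EBP and ABCA1, were added, and the choice among all of them made, after their values were seen. Alternatives were filters on dim probes, median subtraction, quantile normalisation, a variance trend, array weights, only the 6 arrays compared, the replicate number as a block, controls kept in, the muscle or epidermal marker mean as a covariate, the mean of a gene's probes, an adjusted p under 0.01 and each array left out. Leaving out 2 dpi replicate 1 and 14 dpi replicate 2 together was added after seeing the data. Neither scan dates nor batches were known.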

Additional observations from a re-analysis of the deposited data

How the results depend on the processing

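Replicate numbers were shared by the groups, but the sample titles do not say that they pair animals. Deviations from the group means correlated at 0.306, 0.479 and -0.03 for same-numbered arrays of 2 and 21 dpi. For arrays with different numbers the correlations ran from -0.474 to 0.101. Whether the numbers pair the arrays was not settled, and the main fit did not pair them. With the replicate number as a block 3797 probes changed, 1678 higher and 2119 lower, and 1524 by at least 2-fold. Leaving out 1 array gave 2738 to 4781 changed probes, 1236 to 2071 higher, 1487 to 2758 lower and 1258 to 1700 changed by at least 2-fold. Array weights, in which 21 dpi replicate 3 had a weight of 8.39, gave 7593 changed, 3300 higher and 4293 lower. The muscle marker mean as a covariate gave 809 changed, 432 higher, 377 lower and 567 by at least 2-fold, and the epidermal marker mean gave 307, 202, 105 and 281. An adjusted p under 0.01 gave 2048 changed, 927 higher and 1121 lower. The remaining settings kept these counts within 1.5 times, as did leaving out 2 dpi replicate 1 and 14 dpi replicate 2 together (4230 changed, with 34 muscle markers higher), an alternative chosen after seeing the data. Of 228 named genes that were called, 125 kept their call with the muscle mean and 47 with the epidermal mean. With the epidermal mean the difference turned for TFAP2A (0.27), BLNK (0.12), EPYC (-0.0025) and MMP16 (-0.16), and the cause was not tested. With the mean of a gene's probes it turned for MMP2 (1.5025), where that mean averages 2 probes called in opposite directions. The call for FOS (difference -3.50, adjusted p = 0.0465) was lost without any single array but uninjured replicates 2 and 3 and 2 dpi replicate 1.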

Other observations

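Cell contact and cytoskeleton genes were called in both directions. Of 67 actin and migration genes, 13 rose (19.4%) and 10 fell (14.9%), against 10.9% and 14.4% of all genes. The share of falls was thus near that of all genes, and 6 fell without 21 dpi replicate 1. The 2 kindlins, which switch integrins on, parted: FERMT2, the form of mesenchymal cells, read 5.72, 4.12 and 4.08 against 9.97, 9.66 and 9.66 (difference 5.13, SE 0.51), and FERMT1, the form of epithelia, read 7.52, 8.10 and 8.27 against 6.62, 6.94 and 6.58 (difference -1.25, SE 0.19). Of 33 junction genes, 4 rose (12.1%) and 9 fell (27.3%). The cadherins CDH11 and CDH13 were higher by 4.58 and 2.67. TJP1, a tight junction scaffold, and CTNNA1, which ties cadherins to actin, fell by 1.14 (SE 0.18) and 1.07 (SE 0.15). Another CTNNA1 probe was not called (-0.15). Of 41 ciliary genes, 6 fell (14.6%) and 1 rose (2.44%), against 14.4% and 10.9% of all genes, with a median difference of 0.05. The share of falls was thus near that of all genes. None rose without 2 dpi replicate 1, 21 dpi replicate 1 or 21 dpi replicate 2. Over all arrays 4 were higher at an unadjusted p under 0.05 in limma. TEKT1, a tektin of motile cilia, read 4.89, 5.62 and 4.90 against 3.83, 3.85 and 3.77 (difference -1.32, SE 0.17), and its second probe fell too. ENKUR and SPAG6, also of motile cilia, fell by 1.50 (SE 0.27) and 0.57 (SE 0.12). Averaged over the 12 arrays all 3 were dim, but at 2 dpi ENKUR read 5.30, 5.58 and 6.57, a mean above the median of all values. The uninjured means of TEKT1, ENKUR and SPAG6 were 3.75, 4.05 and 4.70.

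Lysosome genes rose in 11 of 52 cases (21.2%) and fell in 7 (13.5%), against 10.9% and 14.4% of all genes. The rise count was 5 to 7 without uninjured replicate 2, 14 dpi replicate 3 or any single 21 dpi array. CTSK, a collagen-degrading protease, read 5.88, 6.92 and 6.01 against 7.61, 7.66 and 7.53 (difference 1.33, SE 0.27). A dimmer CTSK probe was not called (0.53). ASAH1, the acid ceramidase, rose by 0.95 (SE 0.12). Of 42 genes of haem, iron and oxidative stress, 8 rose (19%) and 7 fell (16.7%), and 5 rose without 2 dpi replicate 2. The glutathione enzymes GCLC and GSR fell by 2.10 (SE 0.36) and 1.09 (SE 0.17). HMOX1, which degrades haem, stayed bright and was not called (11.57, 12.39 and 11.09 against 10.50, 10.67 and 10.65, adjusted p = 0.121), well above its uninjured mean of 8.09. Of 1740 genes with several probes, 708 had at least 1 probe called, and in 31 of those the probes were called in opposite directions, as for MMP2, BCAN, CPT1A and TGFBR2.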
